A study of Rattus norvegicus with 5 samples.

Results

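Receptor-type protein tyrosine phosphatases are the subject here: 10 genes of the rat (Ptprm, Ptprt, Ptprk, Ptprd, Ptprs, Ptprf, Ptpra, Ptprg, Ptprj and Ptpro) out of 32285 gene identifiers counted in each library. They were taken by symbol from a named list, each symbol was found in the authors' deposited comparison, and all 10 passed the filter on low counts that left 13811 genes for testing. The RNA came from neurons of the rat striatum that had been marked by a fluorescent tracer infused where their axons end and then captured by laser microdissection. Striatomesencephalic neurons, which project to the midbrain and form the direct pathway, gave 2 libraries, and striatopallidal neurons, which project to the pallidum and form the indirect pathway, gave 3. The labels name no genotype, treatment, strain, sex or age, nor the number of cells or animals behind a library, so p-values measure only the spread between these 5 libraries.

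A receptor-type phosphatase has an extracellular part that meets ligands or neighbouring cells, a single membrane span and, inside the cell, catalytic domains that take phosphate off tyrosine residues. In neurons the family is known for guiding axons and for organising synapses. The MAM group (Ptprm, Ptprt, Ptprk and Ptpru) binds copies of itself on the next cell and works beside cadherins. The LAR group (Ptprd, Ptprs and Ptprf) acts at the presynaptic side, where it meets adhesion proteins of the postsynaptic cell and, through heparan and chondroitin sulfate chains, proteoglycans of the matrix.

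The stretches of DNA just before the annotated gene start are shown for 2 pairs of members. Ptprm and Ptprt were the members whose levels were lower in both striatomesencephalic libraries than in every striatopallidal library, and Ptpra and Ptprs were the pair with the most similar profile over the 5 libraries. Each line holds the 100 bases before the start, 5′ to 3′ on the gene's strand, from RefSeq's rat assembly GRCr8, which is not the build the authors used. Capitals mark the GC box (GGGCGG), the cyclic AMP response element (TGACGTCA) and the CCAAT box (CCAAT), on either strand.
Ptprm, chr9:114790478-114790577, minus strand: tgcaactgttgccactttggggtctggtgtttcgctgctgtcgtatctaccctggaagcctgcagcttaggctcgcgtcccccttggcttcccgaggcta
Ptprt, chr3:171707693-171707792, minus strand: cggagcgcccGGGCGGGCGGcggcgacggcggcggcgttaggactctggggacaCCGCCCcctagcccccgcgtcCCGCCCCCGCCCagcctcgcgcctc
Ptpra, chr3:138103195-138103294, plus strand: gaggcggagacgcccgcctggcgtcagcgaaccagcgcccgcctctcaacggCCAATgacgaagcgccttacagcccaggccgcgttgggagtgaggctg
Ptprs, chr9:1394092-1394191, minus strand: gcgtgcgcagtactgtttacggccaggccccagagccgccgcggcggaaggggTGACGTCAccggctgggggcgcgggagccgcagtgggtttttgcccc

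These 2 pairs share no marked motif. Ptprt had 5 GC boxes in the stretch shown, some of them overlapping, and 6 in the 250 bases before its start, while Ptprm had 0 in that window. The response element of Ptprs is found in the 250 bases before the start of 1.59% of 33469 rat promoters, the GC box in 30.5% and the CCAAT box in 34.0%. Of the 10 promoters that RefSeq's table lists for 9 of the members (Ptprd has 2 starts, and Ptprk has no entry), 4 held a GC box, 2 a CCAAT box and 1 the response element. The GC content of the 250 bases was 66.8% for Ptprm, 78.4% for Ptprt, 69.2% for Ptpra and 66.4% for Ptprs, against a median of 51.2% over all promoters. A match is a description of the letters and says nothing about whether a factor binds there.

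The libraries held 20845178 to 24805062 counts, so that 3 counts, taken as the floor of detection, correspond to 0.121 to 0.144 CPM (counts divided by the library's size and put on a common scale). Every member was counted 167 times or more in each library, and the floor limits none of them. Levels are given on that CPM scale after TMM scaling, which corrects library totals for differences in composition, and fold changes as log2 values of striatomesencephalic over striatopallidal libraries. CPM is not corrected for transcript length, so levels are compared mainly between libraries. A gene's level beside another's, and its part in a sum, share or ratio, also depend on transcript length. The pathway labels were matched by their defining genes: the dopamine receptor gene Drd1 had 825 and 1065 CPM in striatomesencephalic and 512, 403 and 390 CPM in striatopallidal neurons, and the receptor gene Drd2 had 138 and 108 CPM against 533, 505 and 492.5 CPM. Of 12 direct pathway markers tested, 10 had positive log2 fold changes and 2, Zfp521 and Sfxn1, negative ones. Of 7 indirect pathway markers tested, 6 had negative log2 fold changes and 1, Ttc12, a positive one. Striatopallidal replicate 2 stood apart from the other libraries (Spearman correlation across genes of 0.785 to 0.820, against 0.845 to 0.907 between the others). RNA of oligodendrocytes was present in every library (10 of 10 markers, 5979 and 7479 summed CPM in striatomesencephalic and 7234, 6953 and 5348 in striatopallidal libraries), and so was that of astrocytes (10 of 10 markers, 1888 and 1480 CPM against 2043, 1433 and 1616 CPM). The 7 vascular markers matched of 9 summed to 36.2 and 81.5 CPM in striatomesencephalic and 63.3, 126 and 61.9 CPM in striatopallidal neurons, with Vtn at 0 counts in striatomesencephalic replicate 1. The 5 microglial markers matched of 9 summed to 35.8 and 20.6 CPM against 104, 36.4 and 31.5 CPM. Sums over marker lists, here and for the precursor markers, are CPM from library totals alone, without TMM scaling. Levels are per library, so fewer cells with a transcript and less of it per cell cannot be told apart.

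Within the MAM group, Ptprm, whose protein holds like cells together, was lower in striatomesencephalic neurons. Its level was 443 and 298 CPM in the striatomesencephalic libraries, against 647, 912 and 801 CPM in the striatopallidal libraries. Both striatomesencephalic libraries lay below all 3 striatopallidal libraries, and the 2 group ranges were separated by a gap from 443 to 647 CPM. Mean levels came to 370.5 ± 102.5 CPM (SD, n = 2) for striatomesencephalic and 787 ± 133 CPM (SD, n = 3) for striatopallidal neurons. The log2 fold change was -1.09 ± 0.35 (SE), its 95% interval -1.91 to -0.26. Over all genes this did not pass, since edgeR's quasi-likelihood test gave Ptprm an unadjusted p of 0.0170 and an adjusted p of 0.779. A smaller p was found for 241 genes (1.74%). Ptprm had been named as an indirect pathway marker in an earlier account of these data, so its values are not independent support for that. The astrocyte marker Gfap was also lower in striatomesencephalic neurons, with 239 and 87 counts, against 5786, 4344 and 1965 counts in striatopallidal neurons. The astrocyte list as a whole overlapped between the groups, with 5 of its 10 markers higher and 5 lower in striatomesencephalic libraries. Groups did not overlap for 2 of the higher markers (10.4% of all genes) and 2 of the lower ones (11.2% of all genes). The part of glial RNA in the Ptprm values was not tested.

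Ptprt, a homophilic receptor found mainly in the brain, was also lower in striatomesencephalic libraries. It stood at 72.3 and 119 CPM in striatomesencephalic neurons, against 172, 137 and 153 CPM in striatopallidal neurons. The groups did not overlap on this scale, but the nearest libraries were close, and with CPM from library totals alone they did overlap, since striatomesencephalic replicate 2 then had 121 CPM and striatopallidal replicate 2 had 106 CPM. Its log2 fold change was -0.68 ± 0.44 (SE), with a 95% interval of -1.73 to 0.36 and an adjusted p of 0.804. Ptprk, another homophilic receptor, whose known substrates include the EGF receptor, varied most between the striatomesencephalic libraries. It had 117 and 29.3 CPM there, a 4.0-fold difference between replicates, and 17.5, 40.3 and 47.3 CPM in striatopallidal neurons. Striatomesencephalic replicate 2 lay inside the striatopallidal range, and the log2 fold change of 1.06 ± 0.77 (SE) was -0.26 when striatomesencephalic replicate 1 was left out (adjusted p = 0.825 with all libraries, 0.990 without that one). Summed over these 3 members, the MAM group had 632 and 446 CPM in striatomesencephalic and 836, 1090 and 1000 CPM in striatopallidal neurons, most of it from Ptprm.

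**Figure D1:**
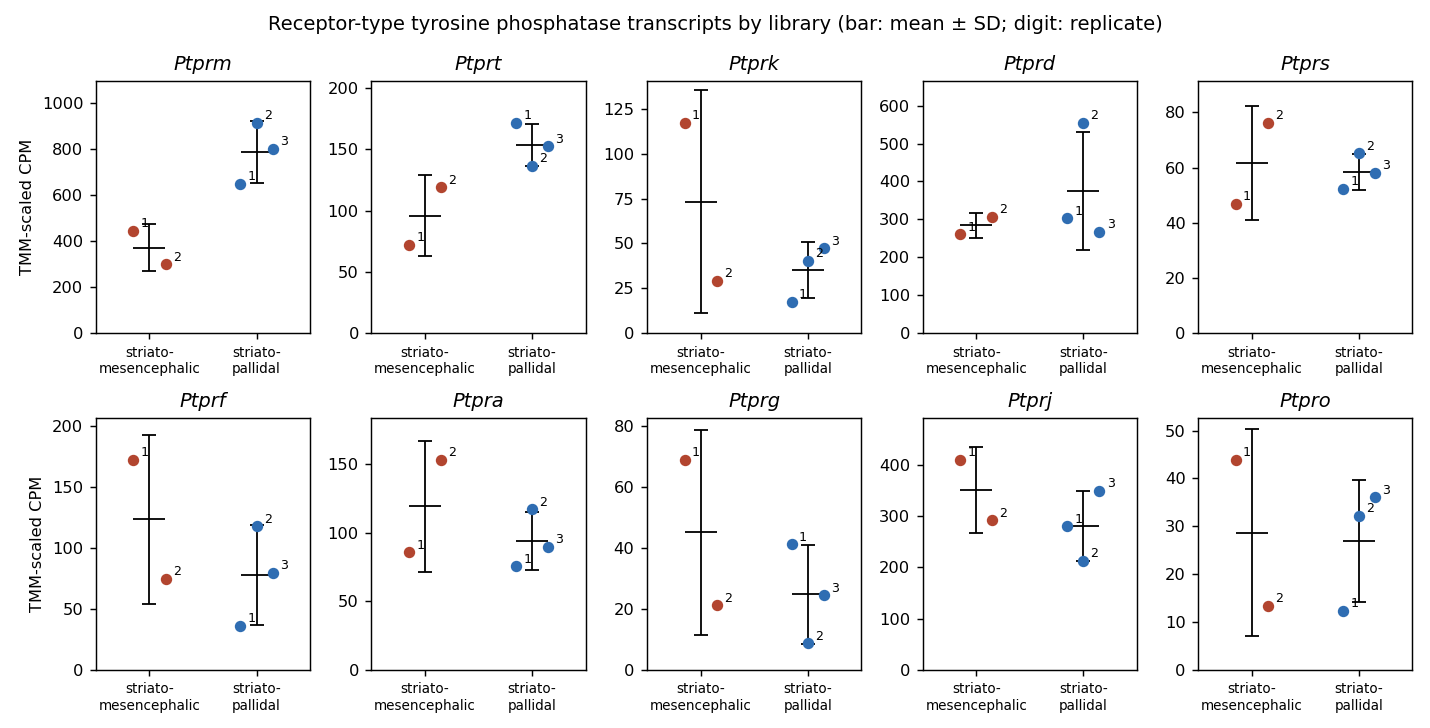
Levels of the 10 members in TMM-scaled CPM (vertical axis, from 0) in the 2 striatomesencephalic (red, left) and 3 striatopallidal (blue, right) libraries; each point is a library with its replicate number, and the bars are the mean and SD. Ptprm shows 443 and 298 CPM in striatomesencephalic neurons below 647 to 912 CPM in striatopallidal neurons, while for Ptprk and Ptpro the 2 striatomesencephalic points are far apart.

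In the LAR group no member separated the 2 neuron types. Ptprd, the presynaptic partner of IL1RAPL1 and of Slitrk proteins, had 261 and 307 CPM in striatomesencephalic neurons and 303, 554 and 267 CPM in striatopallidal neurons. Striatopallidal replicate 2 was the highest library, and the other 2 of that group lay within the striatomesencephalic range. The log2 fold change of Ptprd was -0.40 ± 0.43 (SE), with a 95% interval of -1.42 to 0.62, and it was -0.01 without striatopallidal replicate 2.

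Ptprs, a receptor for both kinds of proteoglycan chain that is known to hold back axon growth on chondroitin sulfate, varied little. It stood at 46.9 and 76.2 CPM in striatomesencephalic neurons and 52.2, 65.2 and 58.1 CPM in striatopallidal neurons. All 3 striatopallidal libraries lay between the 2 striatomesencephalic ones, and the log2 fold change of 0.07 ± 0.51 (SE) has a 95% interval of -1.14 to 1.29. Ptprf, the founding member named LAR, had 172.5 and 74.5 CPM in striatomesencephalic neurons, against 36.0, 118 and 79.8 CPM in striatopallidal neurons. The groups overlapped, striatomesencephalic replicate 1 was the highest library and striatopallidal replicate 1 the lowest, and the log2 fold change of 0.67 ± 0.64 (SE) turned to -0.06 without striatomesencephalic replicate 1. The 3 LAR genes together came to 480 and 458 CPM in striatomesencephalic neurons, within the 391, 737 and 405 CPM of striatopallidal libraries.

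The other members differ in their extracellular parts. Ptpra, which has a short ectodomain and activates Src and Fyn by removing their inhibitory phosphate, had 85.5 and 153 CPM in striatomesencephalic neurons and 75.3, 117 and 89.5 CPM in striatopallidal neurons. Only striatomesencephalic replicate 2 lay above the striatopallidal range, and without it the log2 fold change of 0.35 ± 0.48 (SE) was -0.13. Ptprg, whose carbonic anhydrase-like domain binds contactins, had 68.9 and 21.2 CPM in striatomesencephalic neurons, against 41.2, 8.71 and 24.5 CPM in striatopallidal neurons. It had the widest spread of the members within the striatopallidal group, 4.73-fold from lowest to highest, and its log2 fold change was 0.86 ± 0.86 (SE).

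Ptprj, a type III receptor that acts on growth factor receptors, had 410 and 292 CPM in striatomesencephalic neurons and 280.1, 213 and 349.9 CPM in striatopallidal neurons. The ranges overlapped, striatomesencephalic replicate 1 being the highest library and striatopallidal replicate 2 the lowest, and the log2 fold change was 0.32 ± 0.38 (SE), with a 95% interval of -0.58 to 1.2. Ptpro, also of type III and known to dephosphorylate Eph receptors, had 43.9 and 13.4 CPM in striatomesencephalic neurons and 12.4, 32.2 and 36.0 CPM in striatopallidal neurons. Each group thus held a library near 13 CPM and at least 1 above 30, and the log2 fold change of 0.09 ± 0.82 (SE) was -1.0 without striatomesencephalic replicate 1.

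Over all 10 members, 0 passed a Benjamini-Hochberg threshold of 0.05 with edgeR's quasi-likelihood test, where 0% of 13811 genes did. At an unadjusted p under 0.05 there was 1 member, Ptprm, against 6.07% of all genes (3.14% for genes lower in striatomesencephalic libraries). DESeq2 called 0 members where it called 1.64% of genes, edgeR's exact test 0 where it called 0.275%, and limma voom 0 where it called 0%. By these tools the adjusted p of Ptprm was 0.402, 0.687 and 0.978. Groups that did not overlap were seen for 2 of 10 members, against 21.6% of all genes, which is the background share. Both were lower in striatomesencephalic libraries (11.2% of all genes) and 0 were higher (10.4% of all genes). With library totals alone the count was 1, Ptprm, against 21.1%. The log2 fold change was over 1 in size for 2 members, Ptprm and Ptprk, against 35.4% of all genes. The median log2 fold change was 0.21 over the members, 7 having positive and 3 negative values, and -0.06 over all genes tested.

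**Figure D2:**
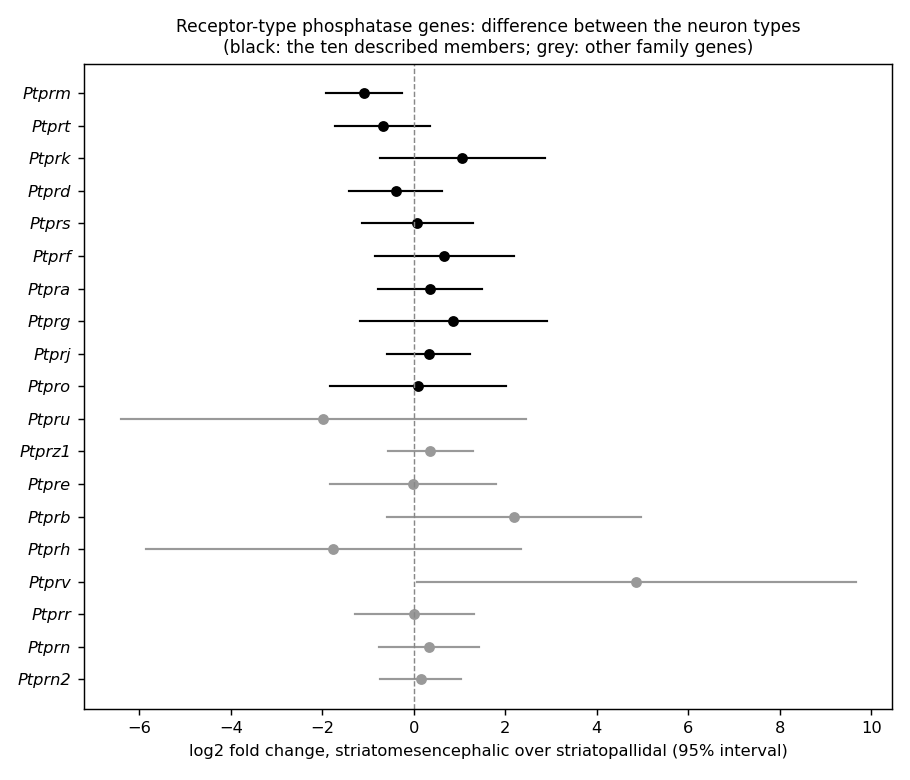
Log2 fold change of striatomesencephalic over striatopallidal libraries (horizontal axis) with its 95% interval from edgeR's quasi-likelihood fit, for the 10 members (black) and the other 9 tested family genes (grey). The intervals of Ptprm (-1.91 to -0.26) and Ptprv lie to one side of 0, and the other 17 include it; none passed after adjustment over all genes.

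The authors' deposited table does not name the direction of its fold changes. For 88.4% of the 11919 genes found in both, their sign is opposite to the one here, so they are read as striatopallidal over striatomesencephalic. In the authors' deposited table Ptprm had 1.02 on the log2 scale, with p = 0.0104 and an adjusted p of 0.927. The authors' deposited table has Ptprt at 0.59, Ptprd at 0.27, Ptprk at -0.90 and Ptprg at -1.06, so the direction of these members is the one found here once the order of the groups is reversed. That is no independent check, since the libraries are the same and the order was itself read from the signs. None of the genes in the authors' deposited table, 0 of 12054, had an adjusted p under 0.05.

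The spread between libraries was smaller for Ptprm than for most genes. Its biological coefficient of variation, the relative spread left after counting error, was 0.398, and 1.77% of tested genes had a lower one. Ptprj (0.414), Ptprd (0.436), Ptprt (0.440), Ptpra (0.470) and Ptprs (0.496) were also among the steadier genes, with 3.48% to 14.3% of genes below them. Ptprf (0.562), Ptprk (0.648), Ptpro (0.684) and Ptprg (0.712) were more variable, and the common value over all genes was 0.822. The coefficient depends on a gene's average count, so these ranks partly reflect abundance. The trend fitted over all genes gave 0.490 at the abundance of Ptprm. It gave 0.503, 0.501, 0.544, 0.561 and 0.620 for Ptprj, Ptprd, Ptprt, Ptpra and Ptprs. For Ptprf, Ptprk, Ptpro and Ptprg it gave 0.567, 0.648, 0.728 and 0.708, close to or above their own values.

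The members had different shapes over the 5 libraries. Likeness was measured as the root mean square difference between 2 genes' log2 CPM after subtracting each gene's own mean. Ptpra and Ptprs were the nearest pair, at 0.173, followed by Ptprf and Ptprk at 0.364 and by Ptprd and Ptprs at 0.366. Ptprm and Ptprg were the farthest pair, at 1.352. Ptprg, Ptprf, Ptprk and Ptpro were each highest in striatomesencephalic replicate 1, by 1.38, 1.02, 1.51 and 0.85 on the log2 scale above their own mean. Ptprf, Ptprk and Ptpro were also each lowest in striatopallidal replicate 1, while Ptprg was lowest in striatopallidal replicate 2, at -1.59.

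**Figure D3:**
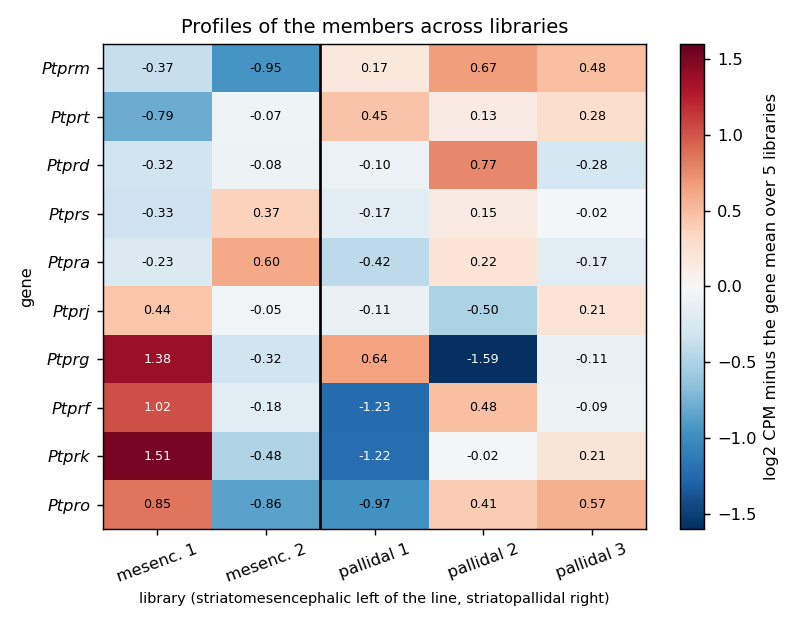
Log2 CPM of each member minus its mean over the 5 libraries (colour and printed value), with the 2 striatomesencephalic libraries left of the black line and the 3 striatopallidal libraries right of it. Ptprm and Ptprt are below their mean on the left and above it on the right, while Ptprg, Ptprf, Ptprk and Ptpro peak in striatomesencephalic replicate 1.

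The make-up of the members' counts within a library does not depend on how libraries are scaled. Ptprm took 25.7% (exact 95% binomial interval 25.3 to 26.2) and 21.5% (21.1 to 22.0) of the 10 genes' counts in striatomesencephalic libraries. In the striatopallidal libraries it took 39.5% (39.1 to 40.0), 41.5% (41.0 to 42.0) and 42.0% (41.6 to 42.5). The 3 striatopallidal shares lie close together and above both striatomesencephalic shares, although these intervals cover counting error only and reads carried no molecular identifiers. The share of Ptprj was 23.8% and 21.1% in striatomesencephalic libraries, against 17.1%, 9.70% and 18.4% in striatopallidal libraries. Shares of a library add up to a fixed whole, so a larger share of Ptprm lowers the others. In CPM the groups overlapped for Ptprj. Ptprd took 15.1% and 22.2% against 18.5%, 25.2% and 14.0%, and these ranges overlap.

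**Figure D4:**
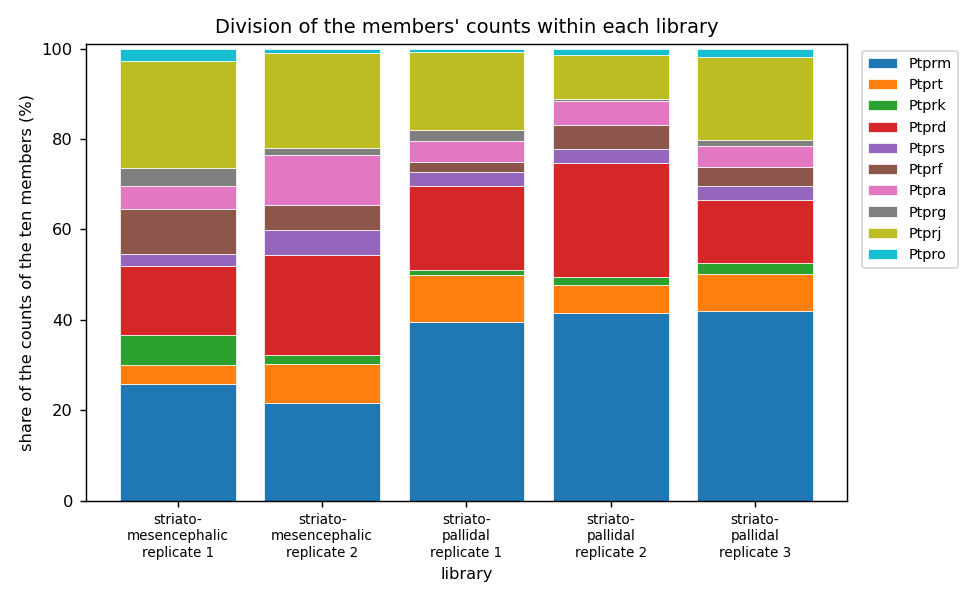
Share of the summed counts of the 10 members taken by each gene (vertical axis, percent) in the 2 striatomesencephalic (left) and 3 striatopallidal (right) libraries. The lowest block, Ptprm, takes 25.7% and 21.5% in striatomesencephalic and 39.5% to 42.0% in striatopallidal libraries; shares also depend on transcript length.

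Ratios between members reuse the same counts, so for Ptprm they are another description of its contrast and no separate support. Ptprm counts were 1.08 and 1.02 times those of Ptprj in striatomesencephalic libraries, against 2.31, 4.28 and 2.29 times in striatopallidal libraries. Relative to Ptprk the ratios were 3.78 and 10.2 in striatomesencephalic libraries, against 37.0, 22.7 and 16.9. The ratio of Ptprm to another member was lower in both striatomesencephalic libraries for 6 of the 9 others, which share Ptprm as numerator. The ratio of Ptprm to a gene was lower in this sense for 41.1% of all other tested genes. The 3 members whose ratio to Ptprm overlapped were Ptprd, Ptprt and Ptpro.

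Leaving out single libraries moved the members to different degrees. Ptprm stayed between -1.40 and -0.82 and Ptprt between -1.08 and -0.36 on the log2 scale in the 5 fits that each left out 1 library. Ptprd stayed between -0.60 and -0.01, and Ptprj between 0.06 and 0.55. The 6 others, Ptpra, Ptprs, Ptprf, Ptprk, Ptprg and Ptpro, each changed sign in at least 1 of these fits. The lowest adjusted p that Ptprm reached in them was 0.557, without striatopallidal replicate 2.

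**Figure D5:**
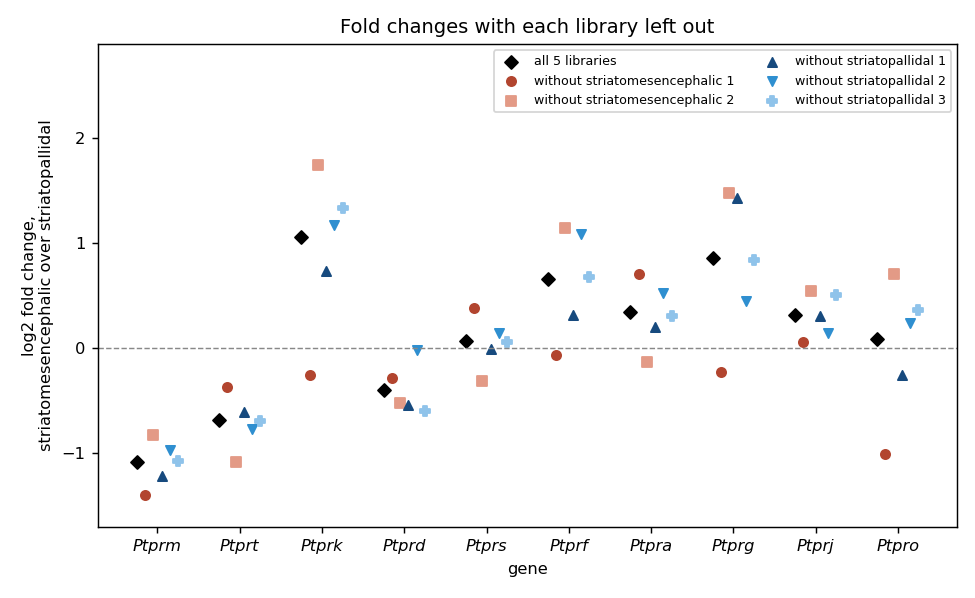
Log2 fold change of striatomesencephalic over striatopallidal libraries (vertical axis) for each member with all 5 libraries (black diamond) and with each library left out in turn (coloured symbols). Ptprm (-1.40 to -0.82) stays below 0 throughout, and Ptpro spreads from -1.0 to 0.71.

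Genes whose profile was nearest to that of a member were found among 8633 named genes with a mean of at least 10 CPM, over 5 libraries. For Ptprm these were Tmtc1, an enzyme of the endoplasmic reticulum (root mean square difference 0.076), Mrpl17, a mitochondrial ribosomal protein gene (0.098), and Aspa, which encodes aspartoacylase, an oligodendrocyte enzyme (0.113). Tmtc1 had 52.5 and 38.0 CPM in striatomesencephalic neurons, against 86.7, 124 and 109 CPM in striatopallidal neurons, the same order of libraries as Ptprm. The nearest gene was RGD1563349 for Ptprt (0.079), Cyth1 for Ptprk (0.159), Pdcd10 for Ptprd (0.063), Arid2 for Ptprs (0.050) and Rapgef6 for Ptprf (0.140). It was Tmem38a for Ptpra (0.068), Plekhf2 for Ptprg (0.121), Dmxl1 for Ptprj (0.043) and Lpgat1 for Ptpro (0.160). With so many candidates and so few libraries, a near match is a description of these profiles only.

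Of 11 further receptor-type phosphatases listed, 9 were tested, and Ptprc and Ptprq were not analysed here. None of the 9 separated the groups, and 0 passed after adjustment. Ptprn and Ptprn2, which sit in the membrane of dense-core vesicles, had log2 fold changes of 0.32 ± 0.46 and 0.15 ± 0.37 (SE). Ptprn2 stood at 875 and 649 CPM in striatomesencephalic neurons, against 447, 809 and 807 CPM in striatopallidal neurons. Ptprr, which acts on MAP kinases, had a log2 fold change of 0.01 ± 0.55 and Ptpre, the close relative of Ptpra, -0.02 ± 0.77 (SE).

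Ptprz1, the contactin-binding relative of Ptprg, which is typical of astrocytes and oligodendrocyte precursors, stood at 141 and 197 CPM in striatomesencephalic neurons and 132, 143 and 119 CPM in striatopallidal neurons. By library totals alone, the 3 tested of 6 precursor markers summed to 256 and 187 CPM in striatomesencephalic neurons. In striatopallidal neurons the sum was 278, 173 and 283 CPM. Most of it was Olig1, with 4412 and 3429 counts in striatomesencephalic and 5693, 3381 and 4834 counts in striatopallidal libraries. The part of precursor RNA in the Ptprz1 values was not tested. Ptprb, the phosphatase of endothelial cells, ranged from 14.8 and 58.0 CPM in striatomesencephalic neurons to 15.4, 0.886 and 7.64 CPM in striatopallidal neurons. The endothelial marker Cdh5 was highest in the same library as Ptprb, at 0.689 and 5.73 CPM in striatomesencephalic neurons and 1.22, 0.678 and 2.14 CPM in striatopallidal neurons. Flt1, which makes up much of the vascular sum given above, had 18.7 and 32.1 CPM against 35.8, 84.5 and 45.5 CPM. Flt1, Tek, Kdr, Pdgfrb and Rgs5 were each highest in striatopallidal replicate 2, where Ptprb was lowest, and Vtn was highest in striatopallidal replicate 3. The part of vascular RNA in the Ptprb values was not tested.

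The 3 remaining genes rested on single libraries. Ptpru, the fourth MAM gene, had 88 and 70 counts in striatomesencephalic libraries and 1024, 2 and 99 counts in striatopallidal libraries. Ptprh had 19 and 175 counts against 50, 762 and 39 counts. Ptprv had 715 and 1 counts in striatomesencephalic libraries and 21, 15 and 3 counts in striatopallidal libraries; it had an unadjusted p of 0.0477 by edgeR's quasi-likelihood test, and the whole excess lay in striatomesencephalic replicate 1.

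Ligands and partners of the family were read from lists, and 0 of their genes passed after adjustment over all genes. Among 13 tested proteoglycan genes, 7 had positive and 6 negative log2 fold changes, with a median of 0.01. Gpc6, a glypican whose heparan sulfate chains belong to the class that LAR receptors bind, had the smallest p of that list. It stood at 802 and 726 CPM in striatomesencephalic neurons, against 355, 368 and 338 CPM in striatopallidal neurons. Both striatomesencephalic libraries were above all 3 striatopallidal ones, with replicates close together in each group. Its log2 fold change was 1.11 ± 0.29 (SE), with an unadjusted p of 0.00663 and an adjusted p of 0.779. Gpc4, the glypican known as a ligand of Ptprs, was low, at 45 and 12 counts in striatomesencephalic and 134, 43 and 63 counts in striatopallidal libraries. The syndecan gene Sdc3 had a log2 fold change of -1.14 ± 0.83 (SE), which rests on 246 CPM in striatopallidal replicate 2 against 44.6 to 54.8 CPM in the other libraries.

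The 10 contactin and related adhesion genes, the list that holds ligands of Ptprg and Ptprz1, showed a median log2 fold change of -0.48, with 3 positive and 7 negative values. Of these, 2 had an unadjusted p under 0.05, both lower in striatomesencephalic neurons (3.14% of all genes), and 0 an adjusted one. Cntn6 stood at 11.8 and 7.73 CPM in striatomesencephalic neurons, against 37.8, 53.1 and 23.2 CPM in striatopallidal neurons, a log2 fold change of -1.96 ± 0.74 (SE). Cntn1 stood at 70.9 and 107 CPM in striatomesencephalic neurons, against 140, 429 and 172 CPM, or -1.47 ± 0.61 (SE). Cntn3 stood at 121 and 122 CPM against 187, 273 and 186 CPM, or -0.82 ± 0.40 (SE). Each of these contactins was below the striatopallidal range in both striatomesencephalic libraries, as 4 of the 10 genes were (11.2% of all genes), and 1 of the 10 was above it (10.4% of all genes).

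For the postsynaptic partners of the LAR group, 11 of 16 listed genes were tested, with a median log2 fold change of -0.46 and 4 positive and 7 negative values. Lrfn5, an adhesion protein that binds LAR receptors across the synapse, stood at 173 and 231 CPM in striatomesencephalic neurons, against 119, 108 and 124 CPM in striatopallidal neurons. It was the one gene of that list whose groups did not overlap (21.6% of all genes), with a log2 fold change of 0.79 ± 0.39 (SE). Ntrk3, the neurotrophin receptor that binds Ptprs, had -0.98 ± 0.56 (SE), and its highest value, 1839 CPM, was in striatopallidal replicate 2, against 485 to 935 CPM in the other libraries. Slitrk6 had -1.75 ± 1.03 (SE).

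Inside the cell, LAR receptors bind liprins. The list of intracellular partners, 17 genes of which only some are liprins, showed a median log2 fold change of 0.22. It had 10 positive and 7 negative values. The liprin-alpha genes on it all had negative values, and the liprin-beta genes had positive ones. Ppfia1, a liprin-alpha gene, stood at 8.96 and 20.2 CPM in striatomesencephalic neurons, against 30.6, 96.2 and 25.4 CPM in striatopallidal neurons, a log2 fold change of -1.80 ± 0.87 (SE). Ppfia2 had -0.91 ± 0.56 and Ppfibp2, a liprin-beta gene, 1.46 ± 0.89 (SE), and the groups overlapped for both.

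The list of partners of the MAM group holds cadherins, catenins and other genes such as Iqgap1. It had a median of -0.43 over 14 tested genes, with 4 positive and 10 negative values. Its tested genes that are neither cadherins nor catenins all had negative values. Ctnna1, an alpha-catenin that links cadherins to actin, stood at 44.5 and 94.6 CPM in striatomesencephalic neurons, against 134, 270.4 and 190 CPM in striatopallidal neurons. The groups did not overlap, and the log2 fold change was -1.51 ± 0.55 (SE), with an unadjusted p of 0.0285. Iqgap1, a scaffold protein bound by Ptprm, had 8.50 and 3.17 CPM against 9.55, 144 and 20.4 CPM, with most of the difference in striatopallidal replicate 2. Cdh4 had 12 and 9 counts in striatomesencephalic and 125, 37 and 84 counts in striatopallidal libraries.

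Substrates of the family and cytosolic phosphatases were mixed in direction. The 16 tested Src kinase, Eph receptor and other substrate genes showed a median log2 fold change of 0.20, with 10 positive and 6 negative values. Ephb2, an Eph receptor, had 2 and 3 counts in striatomesencephalic libraries and 43, 346 and 1 counts in striatopallidal libraries, so that 1 library of the second group was as low as the first group. Lyn, a Src family kinase, stood at -2.02 ± 1.08 (SE) on the log2 scale. Its highest level, 40.0 CPM, was in striatopallidal replicate 1, against 10.3 and 6.67 CPM in the other striatopallidal libraries. Egfr had -2.0 ± 1.27 (SE), the groups overlapped, and its 116 CPM in striatopallidal replicate 2 stood against 5.86 to 17.9 CPM in the other libraries. The 15 tested cytosolic phosphatases had a median of 0.11, with 8 positive and 7 negative values. Of the 3 with the smallest p, Ptpn14 had 2 and 0 counts in striatomesencephalic libraries and 36, 103 and 5 in striatopallidal libraries, Ptpn21 had 8 and 20 against 60, 100 and 155, and Ptpn3 had 6 and 6 against 22, 550 and 11, most of it in striatopallidal replicate 2.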

How the data were processed

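Cells on the capture caps were lysed in TRIzol, per the labels' protocols, and polyadenylated RNA was amplified with a single-cell kit before library preparation; amplification can add spread at the level of single genes. The submitters' processing notes name build Rnor_6.0 and, without roles, limma, edgeR, HTSeq and TopHat2. They do not state whether counting used strand. The authors deposited raw counts per Ensembl gene and library, and every test began from them. The authors' deposited comparison gives log2 fold changes with a p-value and adjusted p-value, and its symbols named 11904 of the 13811 genes tested. The authors' tables of normalized values were not used.

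The fit used edgeR 4.0.16 under R 4.3.3, with filterByExpr with the groups, TMM scaling, glmQLFit and glmQLFTest on all 5 libraries, and Benjamini-Hochberg adjustment over all genes at 0.05. Standard errors are the size of the fold change over the root of F, and 95% intervals from its degrees of freedom. Alternatives were DESeq2 1.42.0, edgeR's exact test, limma 3.58.1 (voom), other scalings, no filter, a replicate block and leaving out each library. Log2 profiles used a prior count of 2. Every pair of libraries differed by more than sampling noise. The members and lists were chosen with earlier results of these data known, so no pattern here is independent support for those results. Named genes are all members and tested family genes, the 3 smallest p-values of each partner list, and the nearest profiles. Pathway markers, Gfap, Olig1 and vascular markers are named besides, and not all of them were picked by such a rule.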

Additional observations from a re-analysis of the deposited data

How the results depend on the processing

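The count of members past the threshold was 0 under every alternative run: DESeq2, edgeR's exact test, limma voom, size factors of DESeq2 in edgeR, library totals alone, no filter on low counts, the replicate block and each library left out. Over all genes the count was 0 with edgeR's quasi-likelihood test, 226 with DESeq2 and 38 with edgeR's exact test. Members whose groups did not overlap numbered 2, but 1 with library totals alone and 2 to 9 with single libraries left out, where the share over all genes also moved, to 32.1% to 49.8%; the 9 came without striatomesencephalic replicate 2, which leaves 1 library in that group. The median log2 fold change of the members ran from -0.24 to 0.33 in those fits.

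Leaving out single libraries turned the direction of 6 members, none of them called: log2 fold changes ran from -0.13 to 0.71 for Ptpra, -0.061 to 1.15 for Ptprf, -0.22 to 1.48 for Ptprg, -0.26 to 1.74 for Ptprk, -1.0 to 0.71 for Ptpro and -0.31 to 0.39 for Ptprs. The other 7 alternatives kept the direction of all 10 members. With the replicate block Ptprm had a log2 fold change of -1.08 and the median was 0.28. Same-numbered libraries did not deviate together from their group means (correlations across genes of -0.02 and -0.03). The deviations of the 2 striatomesencephalic libraries mirror each other, so this check cannot decide whether same-numbered libraries are paired. With 2 libraries in one group, fits that leave out one of them assume that the lone library varies like the others. The cause of these shifts was not tested.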
